A study of Mus musculus with 20 samples.

Results

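The 10 genes described here are translation factors and other genes, outside the ribosome itself, whose mRNAs are known to start with a terminal oligopyrimidine (TOP) motif. They are the subunits of elongation factor 1 (Eef1a1, Eef1b2, Eef1d and Eef1g), elongation factor 2 (Eef2), the translationally controlled tumour protein gene Tpt1, the ribosome-bound scaffold gene Rack1, the poly(A) binding protein gene Pabpc1, and the nascent polypeptide-associated complex genes Naca and Btf3. They were taken by name, and all of their introns in the deposited splicing table were used: 65 introns of the 68794 in the table, from 10 of 8397 genes. Of the 65 introns, 54 were also among the 6537 introns of a second table on splicing intermediates. For comparison, the same tables held 331 introns of 76 ribosomal protein genes.

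Nascent RNA came from wild type murine erythroleukemia (MEL) cells, a mouse line of red cell precursors. One group was untreated (uninduced), and the other was kept for 5 days in 2% dimethyl sulfoxide (DMSO), which starts erythroid maturation (induced). Each group had 4 long-read PacBio samples, from 2 biological replicates sequenced on RSII and Sequel instruments. RNA was bound to chromatin and was depleted of polyadenylated and ribosomal RNA. The deposited tables hold 1 line per intron and condition, read here as the pool of these samples. No value below therefore has a replicate error, and each test compares 2 pools of reads from a single cell line, not 2 conditions.

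A TOP motif is a run of pyrimidines that begins with a C at the first base of an mRNA. Genes with this motif are transcribed at high rates in growing cells, and their mRNAs are translated or held back together when nutrient and growth signals change, through the mTOR pathway and the RNA-binding protein LARP1. Most ribosomal protein genes and many translation factor genes belong to this class. In elongation, eEF1A brings aminoacyl-tRNA to the ribosome, the eEF1B subunits recharge eEF1A with GTP, and eEF2 moves the ribosome along the mRNA.

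The uninduced pool held 416379 intron observations and the induced pool 279371, where 1 read counts once at each intron it spans. The 9 erythroid genes used as a check of the labels each had a larger share of observations in the induced pool, and together they went from 0.138% to 2.48%. No intron of the T cell gene Cd3e, the macrophage gene Csf1r or the fibroblast gene Col1a1 was in the splicing table. The authors' tables use 1 transcript per gene. That of Tpt1 was annotated as noncoding, and that of Pabpc1 was a short transcript of 2 introns with 1 of them listed, so both genes were only partly covered.

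The sequences of the splice sites are shown first, because the 12 introns whose splicing fell after induction include both strong and weak sites. Each 5′ splice site below is given 5′ to 3′ as deposited, with 3 exon and 6 intron bases, and capitals mark the first 2 intron bases. Eef1b2 intron 3 and Naca intron 4 are added as the introns of lowest coSE and of highest coSE at the greatest depth in the uninduced pool, among members with at least 20 reads. Intron positions are on GRCm38 (mm10).
Eef1a1 intron 2 (chr9:78480421-78480510, minus strand): gagGCaagt
Eef1a1 intron 3 (chr9:78480149-78480240, minus strand): cagGTgtgt
Eef1a1 intron 4 (chr9:78479775-78479851, minus strand): aatGTaagt
Eef1a1 intron 5 (chr9:78479535-78479623, minus strand): gagGTaagt
Eef1a1 intron 6 (chr9:78479193-78479277, minus strand): cagGTgaca
Eef1a1 intron 7 (chr9:78478859-78478957, minus strand): ttgGTaagc
Eef2 intron 3 (chr10:81178235-81178680, plus strand): ctgGTaagc
Eef2 intron 8 (chr10:81180078-81180152, plus strand): gagGTgggc
Eef2 intron 11 (chr10:81181158-81181227, plus strand): gagGTaagt
Rack1 intron 1 (chr11:48800573-48801662, plus strand): gagGTacgg
Rack1 intron 2 (chr11:48801835-48802272, plus strand): aacGCaagt
Rack1 intron 3 (chr11:48802421-48803403, plus strand): cagGTaaag
Eef1b2 intron 3 (chr1:63178566-63178831, plus strand): gagGTatga
Naca intron 4 (chr10:128046807-128047657, plus strand): aagGTaaga

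Eef1a1 intron 2 and Rack1 intron 2 began with GC in place of the usual GT. These were 2 of the 54 member introns with a deposited sequence (3.70%), beside 2 of 304 ribosomal protein introns (0.658%) and 43 of all 6537 (0.658%). The authors' 5′ splice site score was 3.32 for Eef1a1 intron 2 and 2.98 for Rack1 intron 2. Of the 6537 scored introns, 3.06% had a lower 5′ score than Eef1a1 intron 2, and 2.34% had a lower one than Rack1 intron 2. Eef1a1 intron 5 and Eef2 intron 11, with the same 9 bases at their 5′ splice sites, both scored 11.08. The median 5′ score was 9.29 over the member introns, 9.19 over ribosomal protein introns and 8.78 over all introns. Low-scoring and high-scoring 5′ splice sites were thus both found among the introns that fell.

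The 3′ splice sites of the 12 introns and of the pair used for contrast are given with 20 intron and 3 exon bases, and capitals mark the last 2 intron bases. They show how much of the stretch before the AG is made of pyrimidines.
Eef1a1 intron 2: aattagaagtcactttgcAGatg
Eef1a1 intron 3: gattgtcttgtttcttacAGgct
Eef1a1 intron 4: attgactgcctgtgttttAGatg
Eef1a1 intron 5: acaaaacaatactattttAGgca
Eef1a1 intron 6: atacacgctgtttttcttAGgtg
Eef1a1 intron 7: aatggcatttttctatatAGgtc
Eef2 intron 3: ccttttcaccctgtcctcAGgcg
Eef2 intron 8: gacagttgccctccctctAGaac
Eef2 intron 11: taacttccagctcttcacAGggc
Rack1 intron 1: acctttaccaacccttttAGaca
Rack1 intron 2: gaccaggttctccttcttAGggg
Rack1 intron 3: ttcccctgcatcttctgtAGgat
Eef1b2 intron 3: aacatcttttctctgtacAGgaa
Naca intron 4: tgttcatttctcttctttAGgct

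Eef1a1 intron 2 had a 3′ splice site score of 0.48, with 0.719% of all scored introns below it. Eef1a1 intron 5 scored 4.21 and Eef2 intron 11 scored 3.66 at the 3′ splice site, while Eef2 intron 3 scored 10.31 and Rack1 intron 3 scored 10.43. The member median was 9.26, the ribosomal protein median 8.62 and the median of all introns 8.70.

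The start of the transcript was read from RefSeq promoter sequences (GRCm38.p6) in a window of 10 bases before and 20 bases from each start. Capitals mark the longest run of at least 5 C or T bases that begins with C. The genes with an intron past the threshold are shown, with Naca as a gene with none, at 11 to 21 induced reads per tested intron.
Eef1a1 (chr9:78481705-78481734, minus strand): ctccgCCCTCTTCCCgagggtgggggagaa
Eef2 (chr10:81176621-81176650, plus strand): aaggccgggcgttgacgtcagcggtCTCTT
Rack1 (chr11:48800350-48800379, plus strand): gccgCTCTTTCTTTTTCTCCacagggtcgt
Naca (chr10:128035336-128035365, plus strand): tcgttCTCTTaaagaggaaacccggacgcc

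In Eef1a1 a run of 10 pyrimidines and in Rack1 a run of 16 pyrimidines covered the annotated first base. In Eef2 a run of 5 began at base 16 of the transcript and met the end of the window, and in Naca a run of 5 ended at the base before the start. The RefSeq start of Naca lies 229 bases from that of its tabulated transcript. RefSeq windows were found for 7 of the 10 genes, with 8 starts; Eef1d, Eef1g and Pabpc1 were not matched. A run of this kind lay anywhere in the window for 5 of 8 member starts (62.5%), for 41 of 68 ribosomal protein starts (60.3%) and for 35.8% of all 32851 starts. It covered the first base, or began within 5 bases after it, in 2 of 8 member starts (25%). The same held for 27 of 68 ribosomal protein starts (39.7%) and 14.1% of all starts. An annotated start can lie some bases away from the start used in these cells, so these are matches to letters and not mapped starts.

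Splicing fell after induction at introns of Eef1a1, Eef2 and Rack1, and no intron of the other 6 tested genes passed the test. Co-transcriptional splicing efficiency (coSE) is the number of reads spliced at an intron divided by all reads spanning it, spliced or not. Among the 44 member introns with at least 10 reads in both pools, coSE fell for 12 and rose for 0 at an adjusted p under 0.05 (Fisher's exact test, two-sided, Benjamini-Hochberg adjustment over all 4403 introns tested). The 12 make up 27.3% of the members tested, where 1.25% of all introns tested were called lower and 0.363% higher. Of the 12, 6 lay in Eef1a1, 3 in Eef2 and 3 in Rack1. At an unadjusted p under 0.05 there were 17 member introns, beside 351 of all 4403. The other 21 introns were too thinly covered to test.

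Over the tested member introns, 30 had a lower coSE in the induced pool, 11 a higher one and 3 the same, with a median difference of -0.07. Over all 4403 introns tested, 1534 were lower, 1879 higher and 990 the same, with a median difference of 0. The median coSE was 0.944 over the 63 member introns with at least 10 reads before induction and 0.850 over the 44 after it. These medians were 0.961 and 0.931 for ribosomal protein introns and 0.933 and 0.947 for all introns. With the reads of all member introns added, 93.9% of observations were spliced before and 79.7% after induction. The added values were 94.1% and 90.4% for ribosomal protein introns and 86.1% in both pools for all introns. Neighbouring introns of a gene are often spanned by the same long read, so calls within a gene are not independent. Without Eef1a1 the count of called introns was 6 of 37 (16.2%), without Eef2 it was 9 of 31 (29.0%), and without Rack1 it was 9 of 38 (23.7%).

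**Figure D1:**
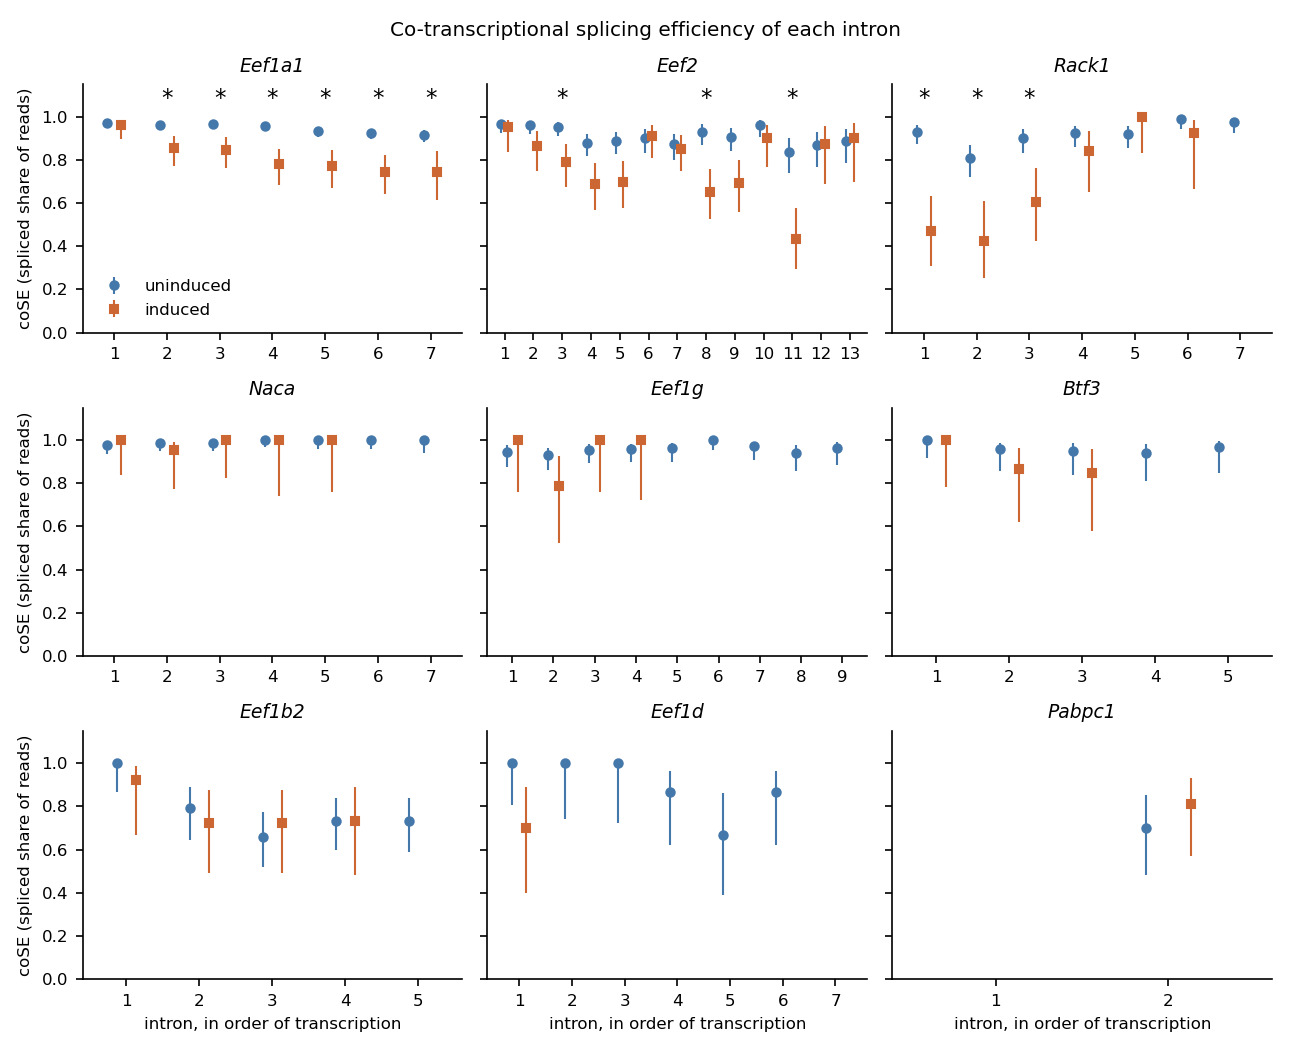
Co-transcriptional splicing efficiency (coSE, spliced share of reads, vertical axis) of each intron, numbered in order of transcription, in the uninduced (circles) and induced (squares) pools, for 9 genes; introns with at least 10 reads in a pool are drawn, bars are 95% Wilson intervals, and stars mark the 12 introns past the threshold. The starred introns are 6 in Eef1a1, 3 in Eef2 and 3 in Rack1, and induced points of Naca and Eef1g lie mostly at 1.

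In Eef1a1, which encodes the tRNA-carrying elongation factor, the first intron did not pass the test and each later intron fell. Intron 1, 950 nt long and in the 5′ untranslated region, was spliced in 686 of 707 reads in the uninduced pool and in 79 of 82 in the induced pool, coSE 0.970 and 0.963 (exact test, adjusted p = 1). Intron 2, of 90 nt and with the GC splice site, was spliced in 718 of 746 reads and then in 82 of 96, coSE 0.962 and 0.854 (exact test, adjusted p = 0.00971). Intron 3 had 568 of 588 and then 83 of 98 spliced reads, coSE 0.966 and 0.847 (exact test, adjusted p = 0.00351). The 95% intervals of the induced coSE overlapped between intron 1 (0.898 to 0.987) and introns 2 (0.770 to 0.911) and 3 (0.763 to 0.905), and the introns were not tested against each other.

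Intron 4 of Eef1a1 went from 446 of 466 to 71 of 91 spliced reads, coSE 0.957 and 0.780 (exact test, adjusted p = 0.000134). Intron 5 went from 436 of 467 to 64 of 83, coSE 0.934 and 0.771 (exact test, adjusted p = 0.00369). Intron 6 went from 406 of 439 to 64 of 86, coSE 0.925 and 0.744 (exact test, adjusted p = 0.00176). These introns are 77 to 89 nt long. Introns 1 and 3 to 6 were each missing from at least 1 annotated Eef1a1 transcript that spans them. Intron 7, the last one, went from 330 of 360 to 41 of 55, coSE 0.917 and 0.745 (exact test, adjusted p = 0.0372). From intron 2 on, coSE differences ranged from -0.11 to -0.18, and induced values were lower towards the 3′ end of the gene in the order of the introns up to intron 6.

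In Eef2, the translocating elongation factor, 3 of 13 introns fell, and they were not next to each other. Intron 3 (446 nt) was spliced in 163 of 171 reads and then in 49 of 62, coSE 0.953 and 0.790 (exact test, adjusted p = 0.0300). Intron 8 (75 nt) was spliced in 109 of 117 and then in 41 of 63, coSE 0.932 and 0.651 (exact test, adjusted p = 0.00107). Intron 11 (70 nt, the shortest of all member introns) was spliced in 67 of 80 and then in 19 of 44, coSE 0.838 and 0.432 (exact test, adjusted p = 0.00136). The difference for intron 11 was -0.41, with a 95% interval of -0.56 to -0.23.

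None of the other 10 Eef2 introns passed the threshold, though 3 came close to it. Introns 4, 5 and 9 had coSE of 0.880, 0.890 and 0.908 before and of 0.688, 0.697 and 0.692 after induction, with adjusted p of 0.0818, 0.0714 and 0.0580 (Fisher's exact test). Introns 6, 7, 12 and 13 had coSE of 0.868 to 0.903 before and 0.853 to 0.911 after induction. Introns 1, 2 and 10 had 0.963 to 0.965 and then 0.865 to 0.951. Intron 7 (104 of 119 and then 58 of 68 spliced reads) and intron 8 are neighbours of 85 and 75 nt with similar depth; for intron 7 the adjusted p was 1 (Fisher's exact test).

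In Rack1, which encodes a scaffold protein on the small ribosomal subunit, the first 3 introns fell, introns 4 to 6 did not pass the test, and intron 7 had too few reads to test. Intron 1 (1090 nt) was spliced in 120 of 129 reads and then in 15 of 32, coSE 0.930 and 0.469 (exact test, adjusted p = 1.24e-05). Intron 2 (438 nt, GC splice site) was spliced in 88 of 109 and then in 11 of 26, coSE 0.807 and 0.423 (exact test, adjusted p = 0.0252). Intron 3 (983 nt) was spliced in 101 of 112 and then in 17 of 28, coSE 0.902 and 0.607 (exact test, adjusted p = 0.0361). The difference for intron 1, -0.46 with a 95% interval of -0.625 to -0.285, was the largest among the 44 member introns tested.

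Rack1 intron 4 was spliced in 108 of 117 reads and then in 21 of 25, intron 5 in 106 of 115 and then in 19 of 19, and intron 6 in 99 of 100 and then in 12 of 13. Induced coSE was thus 0.840 to 1 in these 3 introns, above all 3 introns upstream of them. Intron 7 was spliced in 89 of 91 reads and then in 7 of 9. The annotation places a small nucleolar RNA (snoRNA) gene inside each of introns 1, 2 and 3 of Rack1 (Gm25296, Snord96a and Snord95) and inside none of introns 4 to 7. SnoRNAs guide chemical modification of ribosomal and other RNAs and are released from the introns of their host genes. Rack1 introns 1 to 4 were each missing from at least 1 annotated Rack1 transcript that spans them.

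The remaining genes had no intron past the threshold. They are Naca and Btf3, whose products form the complex that shields new peptides at the ribosome exit, Eef1g, Eef1b2 and Eef1d, subunits of the eEF1B exchange factor, and Pabpc1, the cytoplasmic poly(A) binding protein. Together they had 18 tested introns, of which 8 were lower, 7 higher and 3 equal in the induced pool, with a median difference of 0. Their induced depth was 10 to 21 reads per intron, well under that of Eef1a1, so smaller changes were not detectable at this depth.

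In Naca, spliced reads went from 134 of 137 to 20 of 20 at intron 1, from 138 of 140 to 20 of 21 at intron 2, and from 134 of 136 to 18 of 18 at intron 3. Naca introns 4 and 5 were fully spliced in both pools (121 of 121 and 11 of 11, and 91 of 91 and 12 of 12). Naca introns 6 and 7 had too few induced reads to test, with 88 of 88 and then 7 of 9, and 58 of 58 and then 1 of 1. At intron 2 of 9607 nt, the longest member intron, a single unspliced read was thus counted after induction. In Eef1g, intron 1 went from 85 of 90 to 12 of 12, intron 3 from 101 of 106 to 12 of 12 and intron 4 from 92 of 96 to 10 of 10. Eef1g intron 2 went from 92 of 99 to 11 of 14 (exact test, adjusted p = 0.870). For Eef1g intron 1, the 95% interval of the difference was -0.19 to 0.12, which still includes falls as large as those of Eef1a1.

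Btf3 intron 1 was spliced in 43 of 43 and 14 of 14 reads, intron 2 in 45 of 47 and 13 of 15, and intron 3 in 39 of 41 and 11 of 13. Eef1b2 was the least spliced of the well-covered genes before induction: 158 of 208 observations (0.760) were spliced, and 54 of 69 (0.783) after it. Its intron 1 had 25 of 25 and then 12 of 13 spliced reads, intron 2 had 31 of 39 and 13 of 18, intron 3 had 33 of 50 and 13 of 18, and intron 4 had 36 of 49 and 11 of 15. Eef1b2 introns 3 and 4 also hold snoRNA genes (Gm26457 and Snora41), and neither passed the test. Eef2 intron 4 holds Snord37 and came close to the threshold, with coSE of 0.880 and 0.688 (exact test, adjusted p = 0.0818). With a minimum of 20 reads in each pool it passed. At the main setting, introns with a snoRNA gene were thus found both among those that fell and among those that did not pass.

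Coverage of the last 3 genes was thin. Pabpc1 intron 2 had 14 of 20 spliced reads before and 13 of 16 after induction. Eef1d intron 1, of 7989 nt, had 16 of 16 and then 7 of 10 (unadjusted p = 0.0462, adjusted p = 0.606, Fisher's exact test). All 7 Eef1d introns had a lower point value in the induced pool, where reads per intron were 3 to 10, and the gene's added reads went from 79 of 87 to 21 of 38 spliced. Tpt1, which encodes a growth-related calcium-binding protein, had no tested intron: at most 11 reads spanned an intron, and its intron 1 had no read in either pool.

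Ribosomal protein genes showed the same direction, in a smaller share of introns. Of 256 tested ribosomal protein introns, coSE fell for 21 (8.20%), in 14 of 65 genes, and rose for 0, beside the 12 of 44 (27.3%) in 3 of 9 member genes. Lower values were found in 164, higher ones in 82 and equal ones in 10, with a median difference of -0.03. Over all introns outside both lists, 22 of 4103 fell (0.536%) and 16 rose, with a median difference of 0. The difference between the members and the ribosomal protein genes was not tested, since the members were chosen with these data known and introns are not replicates.

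None of the 5 ribosomal protein introns with the most reads passed the test. Rps19 intron 2 was spliced in 636 of 641 and then in 334 of 337 reads, and introns 1 and 3 had coSE of 0.994 and 0.992 before and 0.982 and 0.985 after induction. Rps6 introns 1 and 2 had values between 0.995 and 1 in both pools. The smallest p-values in this family belonged to Rpl41 intron 2 (555 of 591 and then 83 of 115, coSE 0.939 and 0.722), Rps28 intron 3 (38 of 45 and then 3 of 19), Rpl41 intron 3 (561 of 590 and then 83 of 104), Rps3 intron 4 (301 of 307 and then 89 of 105) and Rps28 intron 1 (154 of 162 and then 19 of 30). Their adjusted p-values ran from 3.55e-07 to 0.00181. As in the members, some genes thus held several called introns.

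Calls were more frequent at greater depth. The median depth over both pools was 141 reads for tested members, 184.5 for tested ribosomal protein introns and 38 for the rest. With 200 or more reads, 7 of 12 member introns were called lower, 14 of 117 ribosomal protein introns and 8 of 91 others. With at least 100 but fewer than 200 reads, the counts were 5 of 21, 5 of 76 and 6 of 244. From 50 to 99 reads, 0 of 8 member introns, 2 of 49 ribosomal protein introns and 4 of 997 others were called lower, and from 20 to 49 reads 0 of 3, 0 of 14 and 4 of 2771, so the few members below 100 reads are near the background. These depth classes were chosen after seeing the data.

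**Figure D2:**
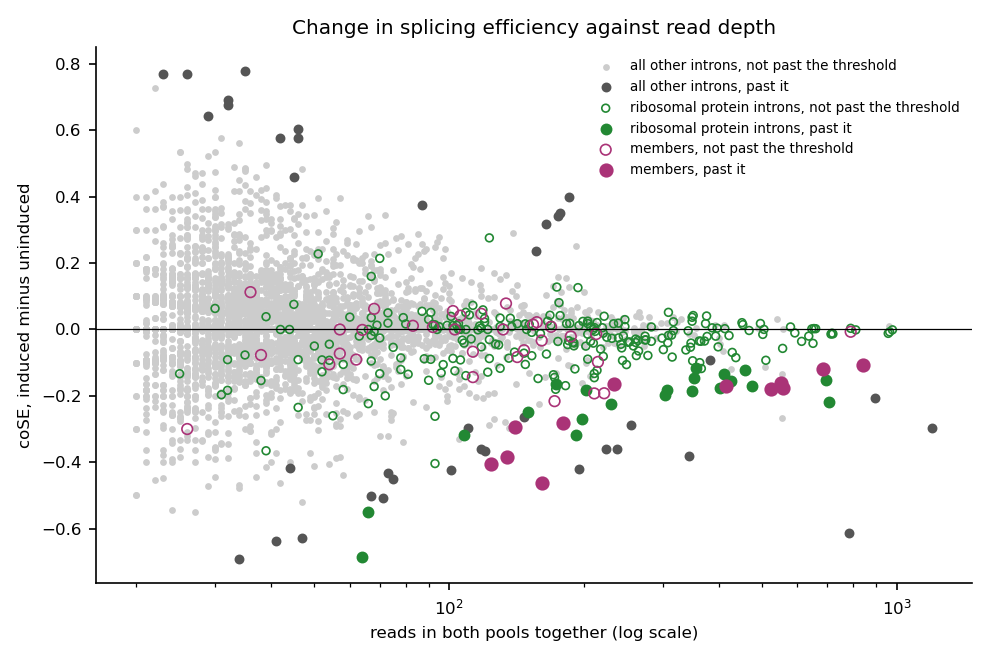
Difference in coSE (induced minus uninduced, vertical axis) against reads in both pools together (horizontal axis, log scale) for the 4403 tested introns; purple marks members, green ribosomal protein introns and grey all others, and filled or dark points are past the threshold. The 12 filled member points all lie below 0, and the 12 members with 200 or more reads are all below 0 as well.

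By length, the called member introns were mostly short ones, which were also the deepest: the median over both pools was 313 reads for tested members of up to 100 nt, 134 above 100 and up to 500 nt, and 113 over 500 nt. Of the 12 tested member introns of up to 100 nt, which lie in Eef1a1 and Eef2, 8 fell (66.7%), beside 2 of 26 ribosomal protein introns (7.69%) and 3 of 327 other introns (0.917%) of that length. Of the 32 longer ones, 2 of 17 above 100 and up to 500 nt and 2 of 15 over 500 nt fell (11.8% and 13.3%), beside 13 of 131 (9.92%) and 6 of 99 (6.06%) ribosomal protein introns and 1.20% and 0.253% of other introns. Of the 6 tested member introns with a snoRNA gene, the 3 in Rack1 fell, beside 3 of 38 ribosomal protein introns with such a gene (7.89%) and 0 of 36 others. These classes were also made after seeing the data, and the introns of a class come from few genes.

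Member genes took a smaller share of all nascent reads after induction, as ribosomal protein genes did. Added over introns, members held 1.97% of all observations before and 0.627% after induction; ribosomal protein introns held 11.6% and 4.67%. Of 56 member introns with at least 20 reads over both pools, the share was lower by 2-fold or more in 40 (71.4%) and higher in 0, where 23.4% of all 7614 introns were that much lower and 18.1% higher. The median fold was 3.43 lower for members and 2.76 lower for ribosomal protein introns, of which 214 of 309 (69.3%) passed the same fold. The median of all introns was 1.05-fold lower. In such bulk shares, fewer cells that make a transcript and less RNA per cell cannot be told apart.

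The fold differed from gene to gene and between introns of a gene. Over the assessed introns of a gene it ranged from 3.42 to 5.78 lower in Eef1a1, from 4.74 to 10.5 in Eef1g, from 4.47 to 38.9 in Naca, from 2.68 to 6.78 in Rack1, from 2.06 to 5.54 in Btf3, from 1.29 to 6.04 in Eef1b2 and from 1.17 to 2.81 in Eef2. The highest Naca value rests on a single induced read. At the intron with the most reads of each gene, Eef1a1 had 746 and 96 reads, a share 5.21-fold lower in the induced pool (exact 95% interval 4.21 to 6.52). Eef1g had 106 and 12 reads, 5.93-fold lower (3.26 to 11.8), and Naca 140 and 21 reads, 4.47-fold lower (2.82 to 7.45). Rack1 was 2.70-fold lower (1.82 to 4.12). Those 4 genes passed 2-fold at every assessed intron: 7 of 7 in Eef1a1, 9 of 9 in Eef1g, 7 of 7 in Naca and 7 of 7 in Rack1.

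Smaller values were found for the others. Btf3 was 2.10-fold lower (1.16 to 4.05), with 5 of 5 introns past 2-fold. Eef1b2 was 1.86-fold lower (1.07 to 3.39), and Eef2 was 1.85-fold lower (1.38 to 2.52), with 3 of 13 introns past 2-fold. These intervals of Eef2 and Eef1a1 do not overlap, but those of other introns do: Eef2 intron 1 was 2.81-fold lower (1.99 to 4.06) and Eef1a1 intron 4 was 3.44-fold lower (2.74 to 4.35). At 8 to 20 reads a pool, the share after induction was 0.932 times the uninduced one for Eef1d, 1.08 times for Tpt1 and 1.19 times for Pabpc1, and these intervals included equal shares.

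**Figure D3:**
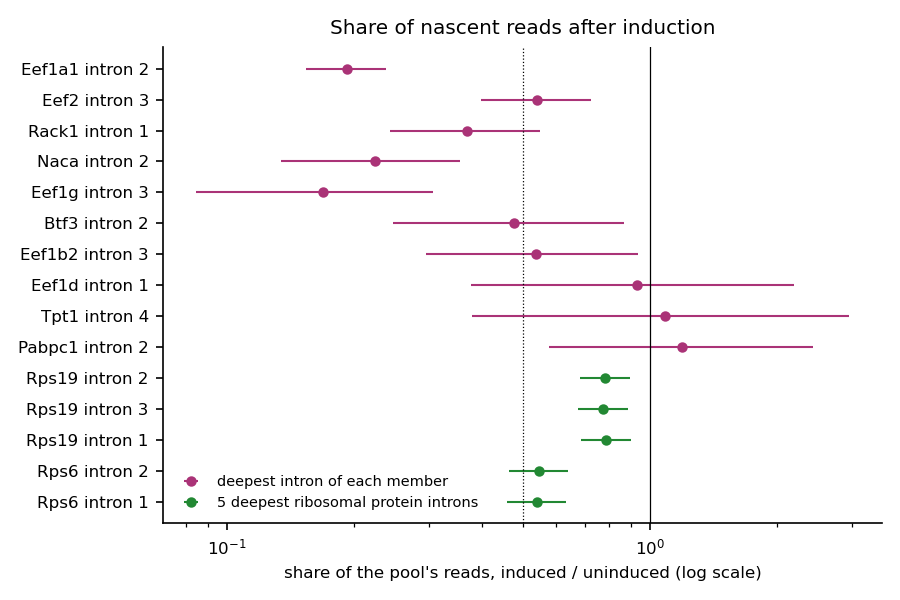
Share of the pool's reads at an intron, induced divided by uninduced (horizontal axis, log scale), for the deepest intron of each member gene (purple) and the 5 deepest ribosomal protein introns (green); bars are exact 95% intervals, the solid line is no difference and the dotted line is 2-fold lower. Eef1a1, Eef1g and Naca lie farthest to the left, and the intervals of Eef1d, Tpt1 and Pabpc1 cross the solid line.

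Added over the members, spliced reads took a smaller share of the pool after induction and unspliced reads a similar one, though the genes differed among themselves in unspliced reads. Per 100000 observations of a pool, members had 1851 spliced and 121 unspliced observations before induction, and 499 and 127 after it. Spliced observations were thus 3.71-fold lower and unspliced ones at 1.06 times the uninduced value, or at 0.836 times without Eef2. For ribosomal protein introns the spliced share was 2.59-fold lower and the unspliced share 1.54-fold lower, and for all introns outside both lists the unspliced share was at 1.01 times the uninduced value. These sums have no interval, since a read that spans several introns is counted at each of them.

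By gene, spliced observations of Eef1a1 went from 862 to 173 per 100000 and unspliced ones from 44.0 to 38.3. In Eef2 spliced observations went from 351.4 to 180.0 and unspliced ones from 31.9 to 53.3, and in Rack1 from 171 to 36.5 and from 14.9 to 17.9. In Eef1g spliced observations went from 172 to 25.4 and unspliced ones from 7.69 to 1.07, which rest on 32 and 3 unspliced observations. In Eef1b2 they went from 37.9 to 19.3 and from 12.0 to 5.37, on 50 and 15 unspliced observations. In Eef1d spliced observations went from 19.0 to 7.52 and unspliced ones from 1.92 to 6.09, on 8 and 17 unspliced observations. The unspliced sums of Eef1a1 (183 and 107 observations) and Rack1 (62 and 50) were at 0.871 and 1.20 times the uninduced share, and no test of these sums was run. Tpt1 had 14 and 5 unspliced observations and Pabpc1 6 and 3. Naca had 7 and 3 unspliced observations in all and Btf3 7 and 4, so their unspliced shares were not measured with useful precision.

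**Figure D4:**
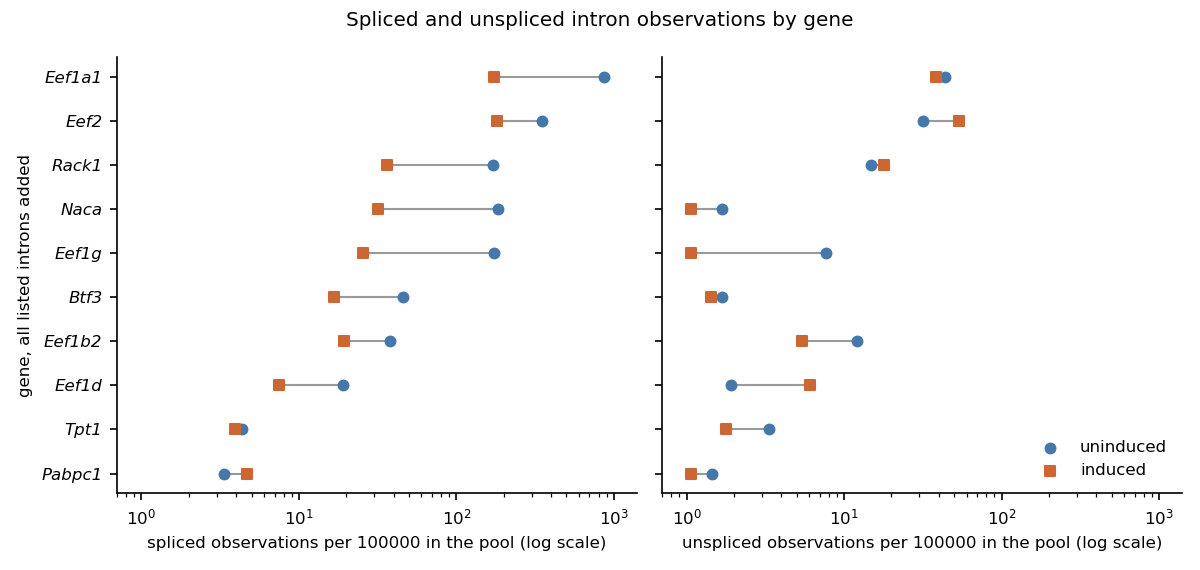
Spliced (left) and unspliced (right) observations per 100000 of the pool (horizontal axes, log scale), added over the listed introns of each gene, in the uninduced (circles) and induced (squares) pools. In Eef1a1, Eef2 and Rack1 the spliced values are apart and the unspliced values are close together or higher after induction.

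Splicing intermediates, taken here as molecules that have been cut at the upstream exon end but whose exons are still apart, did not change at any member intron past the threshold, and Eef2 held most of those counted after induction. The deposited normalized intermediate count (NIC) is intermediates divided by intermediates plus spliced reads. Of 28 member introns with a NIC in both pools, 0 differed at an adjusted p under 0.05 (Fisher's exact test), where 0.0981% of 2039 introns did, and 4 had an unadjusted p under 0.05, where 1.67% did. NIC was higher in 14, lower in 9 and equal in 5 of the member introns, beside 549 higher, 558 lower and 932 equal over all 2039. With reads added over these introns, 79 of 5681 (1.39%) were intermediates before and 44 of 1008 (4.37%) after induction. For ribosomal protein introns the added values were 0.807% and 1.31%, and for introns outside both lists 3.35% and 4.32%.

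Of the 44 intermediates counted in members after induction, 30 came from Eef2, which had 27 of 1405 (1.92%) before and 30 of 471 (6.37%) after induction. Without Eef2, the members' added values were 1.22% and 2.61%, with NIC higher in 6 introns, lower in 6 and equal in 3. Eef2 intron 12 had 2 intermediates of 53 and then 8 of 21 (unadjusted p = 0.000412, adjusted p = 0.280, Fisher's exact test). Its coSE hardly differed, at 0.868 and 0.875. Eef2 introns 9, 10 and 11 had 5 of 103, 2 of 93 and 2 of 61 before, and 4 of 32, 4 of 31 and 3 of 20 after induction. Introns 1 to 6 of Eef2 had 0 to 4 intermediates each in the uninduced and 0 to 1 in the induced pool, so the higher counts lay in the later introns.

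Eef1a1 had 39 intermediates of 3615 (1.08%) and then 6 of 443 (1.35%). Its intron 1 had 0 of 686 and 0 of 72, which allow shares of up to 0.437% and 4.17%. Its intron 7 had 2 of 325 and then 3 of 38 (unadjusted p = 0.00917, adjusted p = 1, Fisher's exact test). Rack1 intron 2, with the GC splice site, had the highest NIC of the Rack1 introns listed in both pools, 10 of 91 and then 5 of 14 (unadjusted p = 0.0279, adjusted p = 1, Fisher's exact test). Eef1a1 intron 2, the other GC intron, had 17 of 735 and then 1 of 77. Over all GC introns with a NIC, the added value was 3.85% in 38 introns before and 4.65% in 24 introns after induction, beside 2.70% and 4.35% for the other introns.

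**Figure D5:**
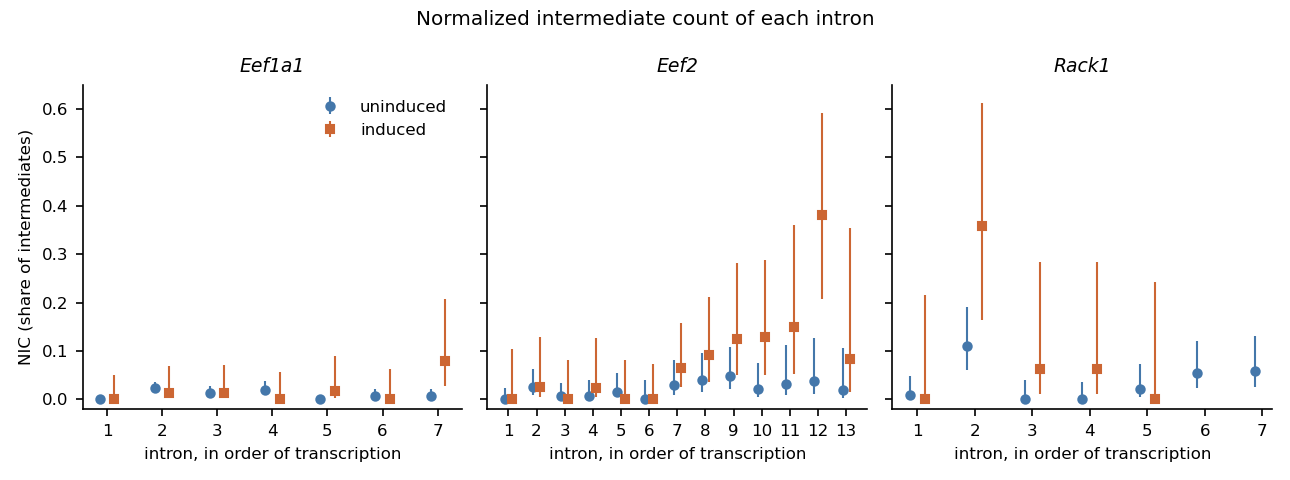
Normalized intermediate count (NIC, share of intermediates, vertical axis) of each intron of Eef1a1, Eef2 and Rack1 in the uninduced (circles) and induced (squares) pools, with 95% Wilson intervals. Eef2 intron 12 (8 of 21) and Rack1 intron 2 (5 of 14) are the highest induced points, and most intervals of the 2 pools overlap.

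Other TOP genes outside the ribosome had no intron past the threshold, a count near the background. From a list of 9 further genes, 8 were in the splicing table, and 43 introns of Npm1, Eif3e, Eif4b, Hnrnpa1 and Eif3a were tested. Of these, 0 changed at an adjusted p under 0.05 (Fisher's exact test), where 1.25% of all introns were called lower and 0.363% higher. At an unadjusted p under 0.05 there was 1 of the 43, beside 351 of all 4403. Values were lower in 20, higher in 21 and equal in 2. Their median depth was 43 reads over both pools, against 141 for the members. The 10 introns of Npm1, which encodes the nucleolar protein nucleophosmin, had 148 to 411 reads, within the depth of the called members, and coSE differences of -0.05 to 0.02. Over the whole list of other TOP genes, the read share was lower by 2-fold or more in 26 of 67 introns (38.8%), beside 23.4% of all introns, and the 10 Npm1 introns, 3.25- to 4.85-fold lower, were among the 26.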

How the data were processed

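The splicing table gives, per the file headers, the count of spliced reads at each intron and condition; its unspliced values were deposited by the authors as well and behaved as whole reads. The table on intermediates gives, per the file headers, a count of spliced reads, the intermediates and NIC, a fraction computed by the authors from those reads; they also deposited the GC percent and a score of both splice sites. The submitters' processing notes name cutadapt, minimap2, SAMtools, bedtools, Bowtie and the builds mm10 and dm3, with no roles. How the samples were pooled, and how reads that also match processed pseudogenes of these genes were placed, is not given in the sources used here. The 12 other samples of the series were not analysed here.

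Intron positions were joined to GENCODE mouse release M21 after adding 2 to the start and taking 1 from the end; 99.96% then matched annotated introns. coSE was tested with at least 10 reads in both pools by Fisher's exact test with Benjamini-Hochberg adjustment at 0.05 (scipy 1.17.1, pandas 2.3.3, Python 3.11.15), checked on simulated data. Read shares needed 20 reads over both pools and a fold of 2. Intervals are 95% (Wilson for shares, Newcombe for differences, exact binomial for read-share ratios), and floors are 3 counts; all cover counting error only. Alternatives were other read minimums, a chi-square test, other folds and introns present in every annotated transcript. Named were all members, the 5 deepest ribosomal protein introns and the 5 with the smallest p. The members and lists were chosen with earlier results of these data known.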

Additional observations from a re-analysis of the deposited data

How the results depend on the processing

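No paired analysis was possible because each condition is 1 pooled line per intron, and leaving out a replicate was not possible for the same reason. At the main setting 12 member introns fell in coSE, and 71 of all 4403 introns were called, 55 of them lower. The 12 became 8 with a minimum of 5 reads (50 of all 11556, 39 lower) and 7 with no minimum (36 of all 42074, 30 lower). With a minimum of 20 reads they became 15 (68 of all 1330, 55 lower), where Eef2 introns 4, 5 and 9 joined. The chi-square test called 12 (65 of all 4403, 55 lower). Restricted to introns present in every annotated transcript that spans them, 5 of 27 were called (31 of all 2806, 27 lower). Of the ribosomal protein introns, 8 of 124 fell there. The 5 were Eef1a1 introns 2 and 7 and Eef2 introns 3, 8 and 11. Eef1a1 introns 3 to 6 and Rack1 introns 1 to 3 were left out by this restriction and so were not tested. With Eef1a1 left out, added after seeing the data, the count of member calls was 6 of 37 (65 of all 4396, 49 lower). All member calls under these alternatives were lower in the induced pool. Eef2 intron 3, Rack1 introns 2 and 3 and Eef1a1 intron 7 missed the threshold with a minimum of 5 reads, and with no minimum these and Eef1a1 intron 2 did. The median coSE difference ranged from -0.07 to -0.14, and was -0.09 with 1 intron per gene (6 of 9 lower). No member NIC was called by the chi-square test or at 20 reads. At an unadjusted p under 0.05 there were 3 of 28 members by the chi-square test, beside 28 of all 2039. At 20 reads there were 3 of 19 by Fisher's exact test, beside 17 of all 649. Lower read shares numbered 46 at a fold of 1.5 (33.5% of all introns), 40 outside globin genes (22.1% of all) and 38 of 50 with at least 50 reads (27.6% of all). Depth limits the induced pool most: over all 65 member introns the median there was 15 reads, and 21 had fewer than 10.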
